A study of Danio rerio with 4 samples.

Results

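The semaphorins, plexins and neuropilins are the ligands and receptors of one axon guidance pathway. They were taken from the table of all genes by symbol, as every row whose name begins with sema and a digit from 3 to 7, with plxn, or with nrp1 or nrp2, in lower case. This gave 42 of the 29029 rows, made up of 28 semaphorins, 10 plexins and 4 neuropilins. A further 7 rows carry names of the same families in capital letters, SEMA4F and PLXND1 among them, and were counted only as an alternative. RNA was compared between OMP class and TRPC2 class olfactory sensory neurons (OSNs) of zebrafish embryos of the Tubingen/TLF strain at 48 hours post fertilization (hpf), with 2 libraries per class. The OMP libraries came from cells sorted for RFP, which the omp promoter drives in OMP:RFP embryos and which labels ciliated OSNs. The TRPC2 libraries came from cells sorted for Venus, which the trpc2 promoter drives in TRPC2:Venus embryos and which labels microvillous OSNs. Both sorts started from dissected olfactory epithelia, and each library was made from pooled sorted cells. OMP RNA had 1 round of amplification and TRPC2 RNA had 2, and the TRPC2 sorts held fewer cells, so the class of the OSNs cannot be told apart from the size of the sort or the rounds.

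Semaphorins are secreted or membrane-bound proteins that steer growing axons, most often by repelling them. The secreted class 3 semaphorins bind neuropilins, which pair with A type plexins to pass the signal into the growth cone. Membrane-bound semaphorins bind plexins directly. In the mouse, olfactory axons that differ in neuropilin level sort from one another on the way to the olfactory bulb, with class 3 semaphorins as the cues. In the zebrafish embryo the axons of OMP and TRPC2 class OSNs end in largely separate protoglomeruli of the bulb.

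Levels are given as deposited RPM, reads scaled by the authors to a library total. Counts over all genes were between 68098416 and 84599818 in OMP and between 49483362 and 60189797 in TRPC2. The OMP libraries had more than 1 RPM for 55.5% and 55.6% of all genes, against 39.2% and 39.3% in the TRPC2 libraries. The labels were checked with marker lists. The 10 ciliated OSN markers found in the files summed to 696 and 875 RPM in OMP and to 113 and 93.7 RPM in TRPC2. The 10 microvillous OSN markers summed to 1195 and 1126 RPM in OMP and to 5850 and 3314 RPM in TRPC2, where calb2a and s100z made up most of the sums. On deposited RPM 4 of the 10 (40%, against 5.61% of all rows) were higher in both TRPC2 libraries and 5 overlapped. The remaining marker, gnai2a, was higher in both OMP libraries (10%, against 53.3%). Of the channel genes, trpc2b, at 2.80 and 3.82 RPM in OMP, against 13.5 and 24.2 RPM in TRPC2, lay with its label. Its relative trpc2a went against it in 1 library, at 1.44 and 1.56 RPM in OMP, against 11.4 and 0.21 RPM in TRPC2. The markers v2rx1 and calb2b were also below both OMP libraries in the second TRPC2 library, at 1.52 and 0.04 RPM there. Red blood cell genes summed to 10710 and 107264 RPM in OMP, against 7.43 and 12.4 RPM in TRPC2. The comparison of counts used edgeR's quasi-likelihood test, whose log2 fold changes are OMP over TRPC2 and use TMM scaling. Their median over the 21026 tested genes was 0.49, and it was 1.13 with library totals only, so the main fold changes are also given relative to 0.49. TMM scaling therefore places genes lower in OMP than the RPM do, and a fold change and a ratio of RPM are not on one scale.

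The family as a whole took up about the same part of each library but was made up differently in the 2 classes. Its 42 genes summed to 536 and 453 RPM in the OMP libraries, against 442 and 515 RPM in the TRPC2 libraries, and the classes overlapped. Within these reads, receptors outweighed ligands more in TRPC2 than in OMP. Semaphorins held 39.1% and 40.1% of the family's reads in OMP, against 20.3% and 18.1% in TRPC2. The rows in capitals are outside these shares and hold further semaphorin reads. SEMA4F was at 37.1 and 36.8 RPM in OMP, against 34.5 and 13.6 RPM in TRPC2. SEMA4B_(2_of_2) was at 14.6 and 10.25 RPM in OMP, against 28.6 and 5.47 RPM in TRPC2. Neuropilins held 34.2% (95% exact binomial interval 33.8 to 34.6) and 34.8% (34.4 to 35.2) in OMP. In TRPC2 the neuropilin share was 68.3% (67.8 to 68.8) and 57.8% (57.3 to 58.3). Plexins held 26.7% and 25.1% in OMP, against 11.4% and 24.1% in TRPC2, where the libraries were far apart. The class 3 semaphorins held 15.8% and 18.3% in OMP, against 2.61% and 4.19% in TRPC2. Such shares do not depend on the library total, but a rise in one part lowers the others, and the intervals cover counting error only. With 2 libraries against 2, an exact two-sided permutation test cannot go below p = 0.33, so the shares are given as a description with no test.

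**Figure D1:**
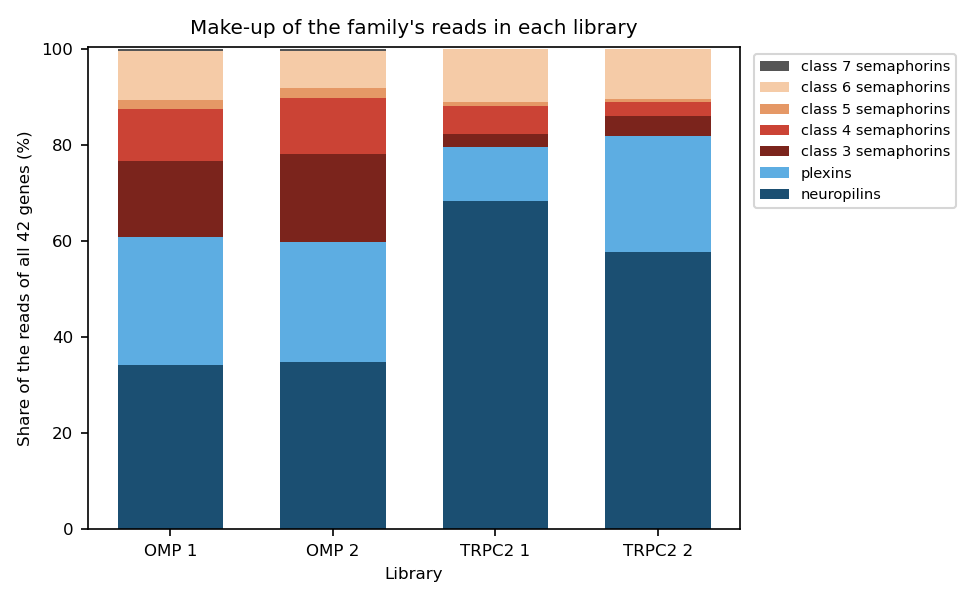
Stacked bars give the share (%) of the reads of all 42 genes held by each subfamily, with a bar per library, OMP at the left and TRPC2 at the right. Neuropilins take 34.2% and 34.8% of the bars in OMP and 68.3% and 57.8% in TRPC2, and class 3 semaphorins take 15.8% and 18.3% in OMP and 2.61% and 4.19% in TRPC2.

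Among the receptors, 3 of the 4 neuropilin genes were read at higher levels in both TRPC2 libraries than in either OMP library, as were 5.61% of all rows. nrp1a, a receptor for class 3 semaphorins such as Sema3a and for vascular endothelial growth factor, was the gene with the most reads of the family in every library. It was at 102 and 87.0 RPM in OMP, against 167 and 146 RPM in TRPC2. The OMP mean of 94.7 ± 10.9 RPM was 0.605 times the TRPC2 mean of 156 ± 14.5 RPM (SD, n = 2 each). nrp2a, which encodes a co-receptor for class 3 semaphorins such as Sema3f, was at 19.7 and 19.2 RPM in OMP, against 54.0 and 61.4 RPM in TRPC2. Its OMP mean was 0.337 times its TRPC2 mean, the widest gap of the neuropilins toward TRPC2. Its duplicate nrp2b was at 50.2 and 35.5 RPM in OMP, against 80.0 and 87.0 RPM in TRPC2, a ratio of 0.513. For each of these genes the classes did not overlap, and the TRPC2 libraries differed from each other by 1.09-fold to 1.14-fold.

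The fourth neuropilin gene, nrp1b, lay the other way. It was at 11.1 and 15.96 RPM in OMP, against 0.87 and 3.44 RPM in TRPC2, a ratio of the means of 6.28. The duplicates nrp1a and nrp1b thus had fold changes of opposite sign, -1.51 and 1.84. As a share of neuropilin reads, nrp1b made up 6.05% and 10.1% in OMP, against 0.29% and 1.15% in TRPC2, and the exact binomial bounds were within 0.456 points of each. The share of nrp2a was 10.7% and 12.2% in OMP, against 17.9% and 20.6% in TRPC2, with bounds within 0.505 points. The share of nrp1a, at 55.9% and 55.2% in OMP and at 55.3% and 49.1% in TRPC2, overlapped between the classes. So did the share of nrp2b, at 27.4% and 22.5% in OMP and at 26.5% and 29.2% in TRPC2.

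In edgeR's quasi-likelihood test no neuropilin passed an adjusted p of 0.05. The log2 fold change of nrp2a was -2.36 with a standard error of 0.35 (adjusted p = 0.0721 in edgeR), which was -2.85 relative to the median of all tested genes and at percentile 4.17 among them. nrp2b was at -1.75 (standard error 0.35, adjusted p = 0.0721), or -2.24 relative to the median and at percentile 7.96. nrp1a was at -1.51 (standard error 0.31, adjusted p = 0.0721), or -2.00 relative to it and at percentile 10.6. The adjustment gave the value 0.0721 to many genes of unlike unadjusted p, such as the markers gch2 (0.000799 in edgeR) and lyz (0.00804). It therefore does not single out these 3 neuropilins. nrp1b was at 1.84 (standard error 1.03, adjusted p = 0.316) and at percentile 66.4. On the same counts DESeq2 called nrp1a, nrp2a and nrp2b, and limma on log2(RPM + 0.5) called nrp2a. Over the edgeR, DESeq2 and limma alternatives that kept all 4 libraries, the adjusted p of nrp2a ran from 1.91e-05 to 0.150. It ran from 0.00365 to 0.262 for nrp1a and from 0.00394 to 0.200 for nrp2b. The sign of all 4 neuropilins stayed under every alternative. Relative to the median of all tested genes in the same fit, nrp1a, nrp2a and nrp2b also stayed below it. With either TRPC2 library left out the 3 genes passed (adjusted p from 0.00287 to 0.00776 in edgeR), where the spread is then taken from the OMP pair alone, and with either OMP library left out they did not (0.666 to 0.676). The log2 fold change of nrp1b was 3.21 without the second TRPC2 library, where the median of all tested genes was 1.33. It was 1.02 without the first, which was below the median of 1.24 there.

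Genes that neurons use in general were summed beside these 3 neuropilins. A list of neuronal and growth cone genes, 14 of 17 of them in the files, summed to 3699 and 2452 RPM in OMP, against 4591 and 8927 RPM in TRPC2. Of the 14, 9 (64.3%, against 7.18% over all tested genes) were under an unadjusted p of 0.05 toward TRPC2 in edgeR and 0 (against 23.3%) toward OMP, 0 passed the adjusted threshold, and no gene of the list was at 0 in both libraries of a class. On deposited RPM 6 (42.9%, against 5.61% of all rows) were higher in both TRPC2 libraries and 1, nefma (7.14%, against 53.3%), in both OMP libraries. The other 7 genes of the list overlapped. Their part in the neuropilin values was not tested. The 16 markers of vascular endothelium, a tissue that also uses neuropilins, summed to 65.3 and 42.2 RPM in OMP, against 8.78 and 9.28 RPM in TRPC2, the same side as nrp1b. The genes she and cldn5b made up most of these sums. Of the 16 markers, 14 (87.5%, against 53.3% of all rows) were higher in both OMP libraries and 0 (against 5.61%) in both TRPC2 libraries. The genes kdr and fli1b overlapped, and kdrl, fli1a, egfl7 and lyve1b had no read in TRPC2. The part of these markers in the nrp1b values was not tested. In pooled cells such as these, fewer cells that use a gene and less RNA per cell cannot be told apart.

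**Figure D2:**
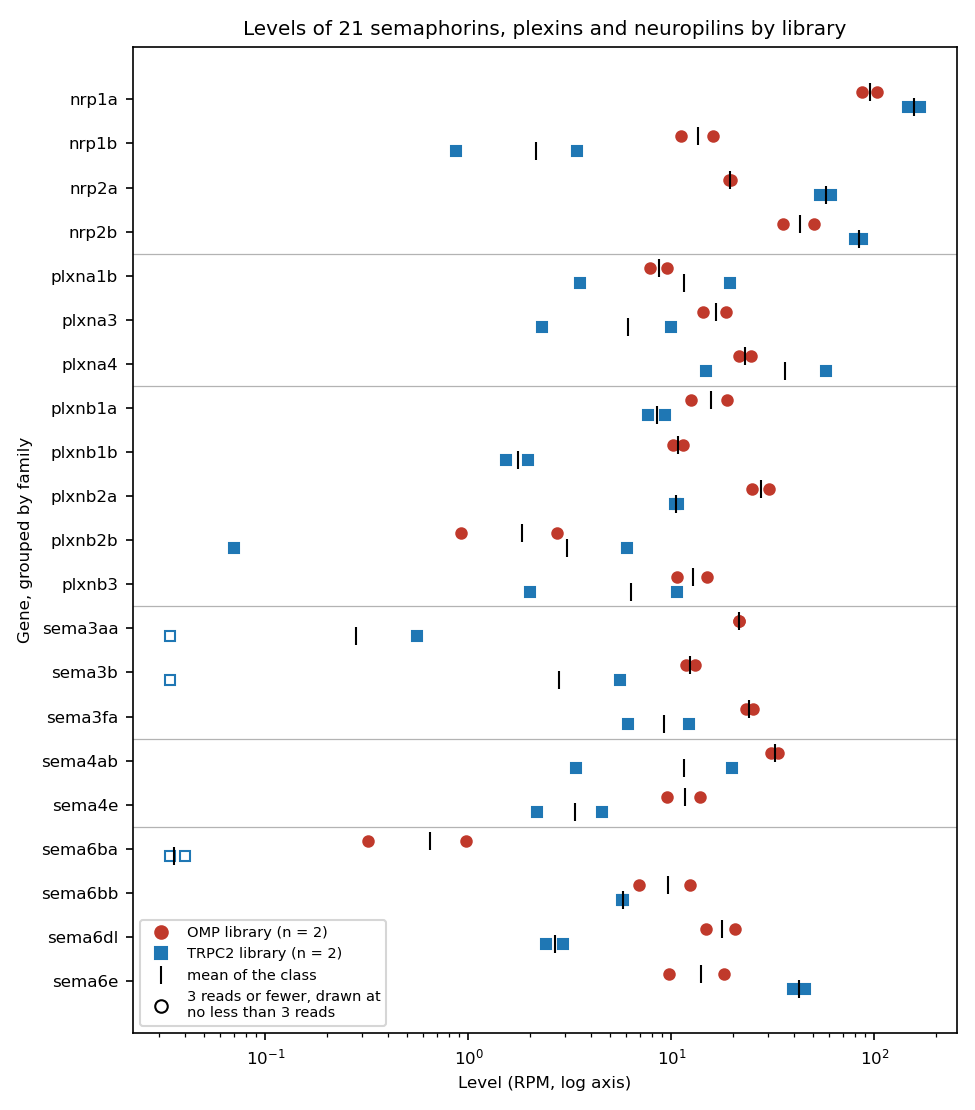
Each row is a gene, and the log axis gives its level in RPM, with circles for the 2 OMP libraries above squares for the 2 TRPC2 libraries, a tick at the class mean, and open symbols where a library had 3 reads or fewer. nrp1a, nrp2a, nrp2b and sema6e have both squares to the right of both circles, while sema3aa, at 21.5 RPM in both OMP libraries, has its squares at the far left.

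Of the 4 A type plexins, the signalling partners of the neuropilins, 0 (against 5.61% of all rows) were higher in both TRPC2 libraries. plxna2 and plxna3 (50%, against 53.3% of all rows) were higher in both OMP libraries and plxna1b and plxna4 overlapped. Over 4 genes these shares were near those of all rows. plxna4 was at 24.5 and 21.6 RPM in OMP, against 14.7 and 57.9 RPM in TRPC2. plxna1b was at 9.45 and 7.88 RPM in OMP, against 3.56 and 19.5 RPM in TRPC2. In both cases 1 TRPC2 library lay below the OMP libraries and the other above them on deposited RPM. plxna3, which in zebrafish guides motor axons, was at 18.7 and 14.4 RPM in OMP, against 2.31 and 9.94 RPM in TRPC2, with both TRPC2 libraries lower. plxna2 was also higher in both OMP libraries, at 6.12 and 2.15 RPM in OMP, against 1.29 and 0.32 RPM in TRPC2. Summed, the 4 genes were at 58.8 and 45.9 RPM in OMP, against 21.9 and 87.6 RPM in TRPC2. The second TRPC2 library was above the first for plxna1b, plxna3 and plxna4, by 5.48-fold, 4.30-fold and 3.93-fold, and below it for plxna2. Even so, plxna4 held 67.3% and 66.0% of the A type plexin reads in the TRPC2 libraries, against 41.8% and 46.9% in the OMP libraries, with exact binomial bounds within 2.14 points.

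None of the 4 passed in edgeR. The log2 fold changes were -1.47 for plxna4 (standard error 0.75, adjusted p = 0.277) and -1.23 for plxna1b (standard error 0.98, adjusted p = 0.484). For plxna4 the value was -2.29 without the first TRPC2 library and -0.099 without the second. For plxna1b it was -2.13 without the first and 0.54 without the second, so its sign hung on a single library. The median of all tested genes was 1.24 without the first and 1.33 without the second, and both plxna4 and plxna1b lay below it in each fit.

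The B type plexins, receptors for class 4 semaphorins, were higher in both OMP libraries for 3 of 5 genes, a share of 60% where 53.3% of all rows were. plxnb2a was at 30.2 and 24.8 RPM in OMP, against 10.8 and 10.4 RPM in TRPC2, a ratio of 2.60. plxnb1a was at 18.8 and 12.4 RPM in OMP, against 9.31 and 7.66 RPM in TRPC2. Its duplicate plxnb1b was at 11.4 and 10.1 RPM in OMP, against 1.96 and 1.53 RPM in TRPC2, a ratio of 6.15. These 3 genes did not overlap between classes on the RPM scale. On the TMM scale the picture was more even, since plxnb2a and plxnb1a had log2 fold changes of 0.59 and 0.09, near the median of 0.49 over all tested genes, while plxnb1b had 1.84 (standard error 0.85, adjusted p = 0.233 in edgeR). plxnb1b passed in DESeq2 (adjusted p = 0.0280) and not in limma (0.0516 and 0.0531). Its log2 fold change in edgeR was 1.85 without the first TRPC2 library and 1.71 without the second. plxnb3 was at 15.01 and 10.6 RPM in OMP, against 2.01 and 10.7 RPM in TRPC2, and overlapped. plxnb2b also overlapped, at 2.73 and 0.92 RPM in OMP, against 0.07 and 6.05 RPM in TRPC2, an 86.4-fold gap between the TRPC2 libraries. Its fold change of -1.58 was opposite in sign to that of its duplicate plxnb2a, but it was 3.98 without the second TRPC2 library. plxnc1, the receptor for sema7a, was at 6.16 and 8.79 RPM in OMP, against 4.44 and 0.51 RPM in TRPC2.

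The secreted class 3 semaphorins were read higher in both OMP libraries than in either TRPC2 library for 12 of 12 genes, as were 53.3% of all rows. Summed, they were at 84.7 and 83.0 RPM in OMP, against 11.5 and 21.6 RPM in TRPC2, a ratio of the means of 5.07. sema3fa, an orthologue of the gene for the neuropilin 2 ligand Sema3F, was at 23.2 and 25.2 RPM in OMP, against 6.09 and 12.2 RPM in TRPC2. sema3aa, an orthologue of the gene for the growth cone collapsing factor Sema3A, was at 21.5 and 21.5 RPM in OMP, against 0 and 0.56 RPM in TRPC2. sema3b was at 11.8 and 13.0 RPM in OMP, against 0.01 and 5.55 RPM in TRPC2. sema3d was read at 6.08 and 4.04 RPM in OMP but not at all in TRPC2. Its OMP mean was 146 times a floor of 3 reads in each TRPC2 library. For sema3c, at 0.35 and 0.55 RPM in OMP and also unread in TRPC2, the OMP mean was 12.9 times this floor. A count of 0 does not bound the level in these libraries, since sema4c had 0 reads in the first TRPC2 library and 575 in the second. The other 7 class 3 genes were between 0.13 and 6.51 RPM in OMP and between 0 and 4.18 RPM in TRPC2.

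The class 3 genes above 1 RPM numbered 9 and 10 of the 12 in the OMP libraries, where 55.6% and 55.5% of all genes were above it. They numbered 3 in each TRPC2 library, where 39.2% and 39.3% of all genes were above it. Of the class 3 genes, sema3fa was above 1 RPM in both TRPC2 libraries. sema3bl and sema3gb joined it in the first TRPC2 library, and sema3ab and sema3b in the second. sema3fa held 27.4% and 30.4% of the class 3 reads in OMP, against 52.8% and 56.7% in TRPC2, with exact binomial bounds within 3.12 points. In edgeR 0 of the 12 passed the adjusted threshold and 3 had an unadjusted p under 0.05, all toward OMP, which is 25% where 23.3% of all tested genes had one. The log2 fold change of sema3fa was 0.60 (standard error 0.59, adjusted p = 0.572) and that of sema3aa 5.44 (standard error 2.22, adjusted p = 0.187), and both DESeq2 and limma called sema3aa. Without the first TRPC2 library sema3aa was at 4.30 and without the second, where no TRPC2 read is left, at a fitted 13.9. Without the first TRPC2 library sema3fa was at 0.022 and without the second at 1.25. Both values were below the median of all tested genes in the same fit, 1.24 and 1.33. The main log2 fold change of sema3b, 1.33, was 0.19 without the first TRPC2 library and 9.25 without the second. All 12 genes passed the filter on low counts, which reads in OMP alone can meet, so the direction is described and not tested.

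The membrane-bound semaphorins of classes 4, 5 and 7 were also mostly higher in OMP on the RPM scale, as were 53.3% of all rows. Higher in both OMP libraries were 6 of 7 genes in class 4, 3 of 3 in class 5 and 1 of 1 in class 7. sema4ab was at 33.4 and 31.0 RPM in OMP, against 19.8 and 3.40 RPM in TRPC2, and sema4e was at 9.51 and 13.9 RPM in OMP, against 4.55 and 2.18 RPM in TRPC2. Their log2 fold changes of 0.72 and 1.03 lay close to the median of all genes (adjusted p = 0.653 and 0.487 in edgeR). Of the 7 class 4 genes, sema4c alone overlapped, since it was at 5.70 and 3.56 RPM in OMP, against 0 and 6.82 RPM in TRPC2. sema4ba was at 9.12 and 4.62 RPM in OMP, against 1.37 and 2.02 RPM in TRPC2. sema4aa, sema4ga and sema4gb were at 0.37 RPM or less in OMP and unread in TRPC2, and the first 2 of them had too few reads to be tested. In class 5, whose proteins carry thrombospondin repeats, sema5a was at 7.49 and 7.62 RPM in OMP, against 3.87 and 3.40 RPM in TRPC2. Its relatives sema5ba and sema5bb were between 0.66 and 1.94 RPM in OMP and at 0.06 RPM or less in TRPC2. sema7a, which encodes a lipid-anchored semaphorin, was at 1.41 and 1.77 RPM in OMP, against 0.03 and 0.04 RPM in TRPC2.

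Class 6 semaphorins are transmembrane ligands of A type plexins. Of the 5 genes, 4 (80%, against 53.3% of all rows) were higher in both OMP libraries. sema6e was the 1 semaphorin of the 28 (3.57%, against 5.61% of all rows) that was higher in both TRPC2 libraries. It was at 18.2 and 9.67 RPM in OMP, against 39.6 and 45.3 RPM in TRPC2, so its OMP mean was 0.328 times its TRPC2 mean. sema6dl lay the other way, at 20.6 and 14.7 RPM in OMP, against 2.93 and 2.40 RPM in TRPC2, a ratio of 6.62. Within the class 6 reads sema6e held 33.2% and 28.1% in OMP, against 81.9% and 84.6% in TRPC2. sema6dl held 37.5% and 42.8% in OMP, against 6.06% and 4.47% in TRPC2. The exact binomial bounds were within 1.58 points for both genes. The sum over the 5 genes, 54.8 and 34.5 RPM in OMP and 48.4 and 53.6 RPM in TRPC2, overlapped between the classes.

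For sema6e the log2 fold change was -2.40 with a standard error of 0.48 (adjusted p = 0.0721 in edgeR, the value shared by many genes). This was -2.89 relative to the median of all genes and at percentile 3.99. Its adjusted p over the alternatives ran from 0.00105 to 0.666, with DESeq2 past 0.05 and limma not, and its direction stayed under all of them. Without the first or the second TRPC2 library it passed (adjusted p = 0.00608 and 0.00818 in edgeR), again with the spread taken from the OMP pair, and without either OMP library it did not (0.631 and 0.666). sema6dl was at 1.94 (standard error 0.69, adjusted p = 0.140 in edgeR), and DESeq2 and limma called it. sema6bb, at 12.4 and 6.91 RPM in OMP, against 5.79 and 5.73 RPM in TRPC2, had a log2 fold change of -0.047. Its duplicate sema6ba was at 0.97 and 0.32 RPM in OMP, against 0 and 0.04 RPM in TRPC2, with a log2 fold change of 4.31 (adjusted p = 0.164 in edgeR). In the RefSeq annotation of GRCz12tu, sema6e is an older name of sema6cb, sema6dl of sema6d, and sema6d of sema6ca, so the row named sema6d in the files, at 2.72 and 2.83 RPM in OMP, against 0.01 and 0.11 RPM in TRPC2, may be the gene now called sema6ca.

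**Figure D3:**
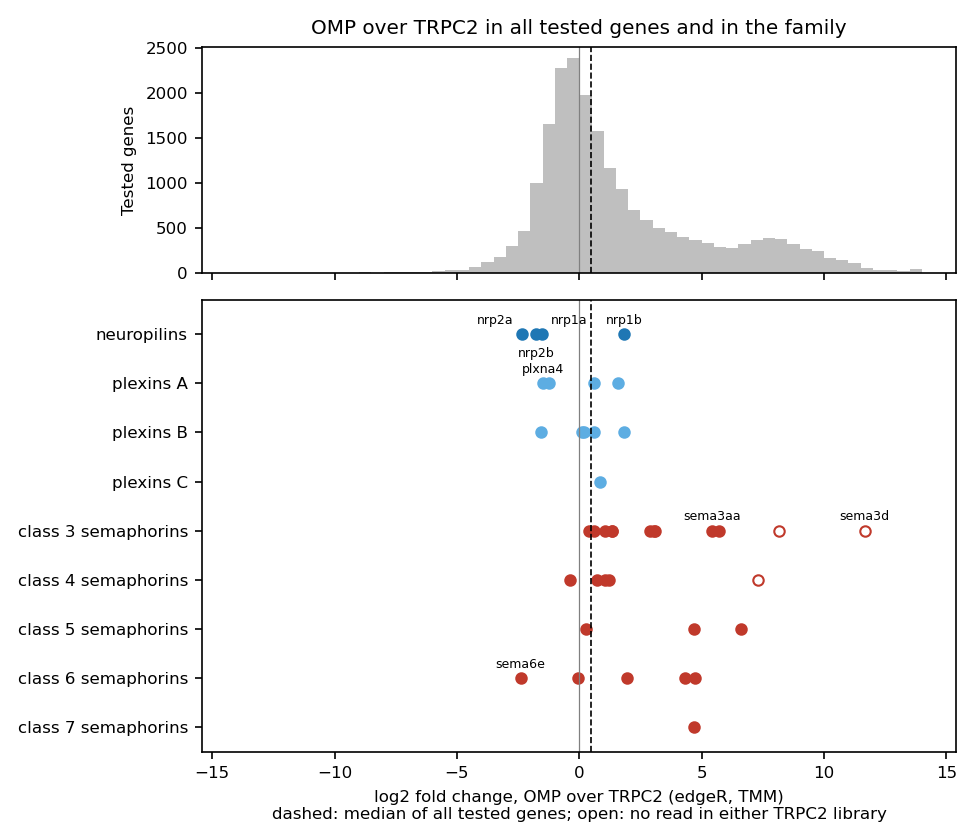
The upper panel counts all 21026 tested genes by log2 fold change of OMP over TRPC2, and the lower panel shows the 40 tested members by subfamily, with open circles for genes without a read in TRPC2 and a dashed line at the median of all tested genes, 0.49. nrp2a, nrp2b, nrp1a and sema6e sit on the far left of their rows, at -2.36, -1.75, -1.51 and -2.40, and the class 3 semaphorins lie to the right of 0.

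Of the 42 genes, 40 had enough reads to be tested and 0 passed an adjusted p of 0.05 in edgeR, where 0% of all tested genes passed. An unadjusted p under 0.05 toward OMP was found for 9 of the 40, or 22.5%, against 23.3% of all tested genes. Toward TRPC2 it was found for 4 of the 40, or 10%, against 7.18% of all tested genes, the 4 being nrp1a, nrp2a, nrp2b and sema6e. Both shares were near the background. Of the 9 genes toward OMP, all semaphorins, sema6dl was the 1 above 0.11 RPM in TRPC2, so the others passed the filter through OMP and their number supports nothing. DESeq2 called 8 members toward OMP and 4 toward TRPC2, where it called 12.9% and 5.67% of all genes. limma on log2(RPM + 0.5) called 8 and 1, where it called 23.5% and 0.785% of all genes, and on log2(RPM + 0.1) it called 12 and 1, where it called 25.4% and 0.832%. With the first TRPC2 library left out edgeR called 17 members toward OMP and 8 toward TRPC2, where it called 32.6% and 16.4% of all genes. With the second left out it called 21 and 4, where it called 34.9% and 15.8% of all genes, and with either OMP library left out it called 0 and 0. On deposited RPM each OMP library exceeded each TRPC2 library for 33 of the 42 genes, or 78.6%, against 53.3% of all rows. The opposite held for 4, or 9.52%, against 5.61% of all rows. All 42 genes had a read in both OMP libraries, where 87.6% and 88.0% of all rows had one. With TMM scaling the 33 and 4 became 26 and 5, and with DESeq2 size factors 24 and 5. The shares of all rows under these scalings are not given, so the excess over 53.3% is a description on RPM only.

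The median log2 fold change was 2.42 over the 26 tested semaphorins and 0.14 over the 14 receptors, where it was 0.49 over all tested genes. By subfamily it was 2.97 for class 3, 1.03 for class 4, 1.94 for class 6, 0.20 for the B type plexins, -0.31 for the A type plexins and -1.63 for the neuropilins. Members with no read in TRPC2 enter with fitted values that depend on the prior count, and 3 of the 5 such genes were tested. Other semaphorins, such as sema3ga, sema5bb and sema7a, were at 0.04 RPM or less in both TRPC2 libraries and passed the filter through OMP. No receptor was that low in both TRPC2 libraries, so the contrast in medians is described and not tested. Of 9 duplicate pairs with both genes tested, 6 had the same sign and 3, nrp1a and nrp1b, plxnb2a and plxnb2b, and sema6ba and sema6bb, had opposite signs. The sign of plxnb2b and of sema6bb changed under some alternatives, and that of nrp1a and nrp1b did not. Relative to the median of all tested genes in the same fit, sema6bb and nrp1a stayed below it throughout. plxnb2b rose above it without the second TRPC2 library (3.98, against 1.33). nrp1b fell below it without the first (1.02, against 1.24).

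How closely the libraries of a class agreed differed between the classes. In OMP, 1 of the 42 genes, sema4ga, differed more than 4-fold between its libraries, with values under 3 reads set to 3 reads. In TRPC2, 15 of the 42 did, and 15 of the 40 tested ones, or 37.5%, against 32.8% of all tested genes. The widest gaps in TRPC2 were for sema4c, 201-fold, and sema3b, 163-fold. Of the 15, sema3bl, sema3gb, sema4ab, plxna2 and plxnc1 were higher in the first TRPC2 library and the others in the second. The 4 genes higher in TRPC2 had gaps there below the median of 1.58-fold, with 1.14-fold for nrp1a, nrp2a and sema6e and 1.09-fold for nrp2b. They were picked for lying above OMP in both TRPC2 libraries, a choice that favours small gaps there. In OMP, where the median was 1.42-fold, the gaps were 1.18-fold for nrp1a, 1.03-fold for nrp2a, 1.41-fold for nrp2b and 1.88-fold for sema6e. In each TRPC2 library 33 of the 42 members had a read and 9 had none, where 61.6% and 62.0% of all rows had one. Every member had a read in both OMP libraries, where 87.6% and 88.0% of all rows had one. The mean was above 1 RPM for 36 of the 42 genes in OMP and for 24 in TRPC2. Of all 29029 rows it was above 1 RPM for 16281 in OMP and for 12416 in TRPC2.

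**Figure D4:**
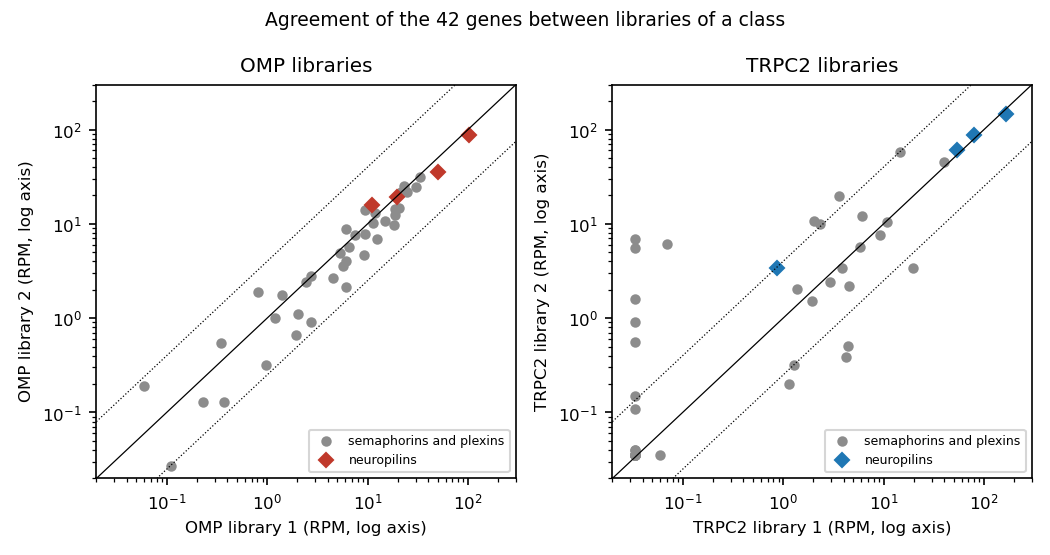
Each point is 1 of the 42 genes, with its level in the first library of a class on the x axis and in the second on the y axis (RPM, log axes), OMP at the left and TRPC2 at the right, and dotted lines at a 4-fold gap. In OMP 1 gene lies outside the dotted lines, and in TRPC2 15 genes do, while 3 neuropilins stay on the diagonal in both.

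Genes for proteins that act below the receptors lay on both sides. Of 36 listed mediators of semaphorin signals, 32 were in the files and all of these were tested. 0 passed in edgeR, 3 (9.38%, against 23.3% over all tested genes) were under an unadjusted p of 0.05 toward OMP and 6 (18.8%, against 7.18%) toward TRPC2, and the median log2 fold change was -0.49, against 0.49 over all tested genes. On deposited RPM 16 of the 32 (50%, against 53.3% of all rows) were higher in both OMP libraries and 4 (12.5%, against 5.61%) in both TRPC2 libraries. Summed, they were at 1213 and 960 RPM in OMP, against 1059 and 1264 RPM in TRPC2. rnd1, a small GTPase that binds plexins, was at 9.15 and 5.82 RPM in OMP, against 27.5 and 28.4 RPM in TRPC2 (log2 fold change -2.69, adjusted p = 0.0721 in edgeR). gsk3b, a kinase of the collapsin response mediators, was at 61.1 and 40.7 RPM in OMP, against 104 and 99.4 RPM in TRPC2. rap1b, of a GTPase family that plexins switch off, was at 86.4 and 112 RPM in OMP, against 169 and 170 RPM in TRPC2. These 3 did not overlap between the classes, and the adjusted p of gsk3b and rap1b was also 0.0721 in edgeR, the value shared by many genes.

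Among the mediators with the most reads, dpysl3, a collapsin response mediator, overlapped, at 262 and 112 RPM in OMP, against 173 and 327 RPM in TRPC2. Its relative dpysl5a was higher in both OMP libraries, at 129 and 100 RPM in OMP, against 68.3 and 76.2 RPM in TRPC2. mical3a, of the family of actin-oxidizing enzymes that bind A type plexins, overlapped, at 62.9 and 78.5 RPM in OMP, against 77.7 and 87.7 RPM in TRPC2.

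Co-receptors and other ligands of these receptors were a list of 23 genes, of which 16 were in the files and 14 were tested. 0 passed in edgeR, and the median log2 fold change was 2.30. Under an unadjusted p of 0.05 in edgeR were 7 (50%, against 23.3% over all tested genes) toward OMP and 0 (against 7.18%) toward TRPC2. Of the 7, itgb1b alone was above 0.06 RPM in TRPC2. The others passed the filter through OMP, so their number supports nothing, and their fold changes also enter the median. met, a receptor kinase that pairs with B type plexins, was at 8.82 and 10.7 RPM in OMP, against 0.01 and 0 RPM in TRPC2. The vascular endothelial growth factor receptor genes kdrl and flt1 are also used by endothelium. flt1 was at 2.06 and 1.74 RPM in OMP, against 0.01 and 0.01 RPM in TRPC2. kdrl was at 1.97 and 1.37 RPM in OMP and unread in TRPC2, and its OMP mean was 48.0 times the floor of 3 reads per TRPC2 library. The growth factor gene vegfaa, whose product binds neuropilins, overlapped, at 25.5 and 19.0 RPM in OMP, against 27.2 and 6.77 RPM in TRPC2. nrcama, a cell adhesion partner of neuropilins, was at 14.9 and 10.9 RPM in OMP, against 28.8 and 0.62 RPM in TRPC2. ptk7a was at 13.0 and 7.51 RPM in OMP, against 8.58 and 4.76 RPM in TRPC2, and the integrin gene itgb1b at 6.69 and 15.2 RPM in OMP, against 0.81 and 0.71 RPM in TRPC2.

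Marker lists of other cell types also differed between the classes. Skin and periderm markers, 17 in the files, summed to 5678 and 8382 RPM in OMP, against 3362 and 2732 RPM in TRPC2. Of these, 13 (76.5%, against 53.3% of all rows) were higher in both OMP libraries and 1, icn (5.88%, against 5.61%), in both TRPC2 libraries. icn was at 823 and 610 RPM in OMP, against 1655 and 1718 RPM in TRPC2. Skeletal muscle markers summed to 21.5 and 34.0 RPM in OMP, against 6.13 and 2.65 RPM in TRPC2, with 13 of 16 (81.3%) higher in both OMP libraries. Of the 16, 6 had no read in TRPC2, and 1 of these, tnni2a.4, had none in OMP either. Macrophage and neutrophil markers summed to 111 and 158 RPM in OMP, against 69.6 and 87.6 RPM in TRPC2, with 8 of 13 (61.5%) higher in both OMP libraries and 1, lyz, higher in both TRPC2 libraries. The sums of these lists were higher in OMP, as were those of the class 3 semaphorins. Pigment cell and neural crest markers summed to 40.6 and 74.1 RPM in OMP, against 1416 and 4811 RPM in TRPC2. Of these, 6 of 14 (42.9%, against 5.61% of all rows) were higher in both TRPC2 libraries and 5 (35.7%, against 53.3%) in both OMP libraries. gch2 made up most of that sum, at 16.8 and 28.2 RPM in OMP, against 1279 and 4521 RPM in TRPC2, and dct and tyrp1b were unread in TRPC2. The part of these cells in the levels of semaphorins, plexins and neuropilins was not tested.

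**Figure D5:**
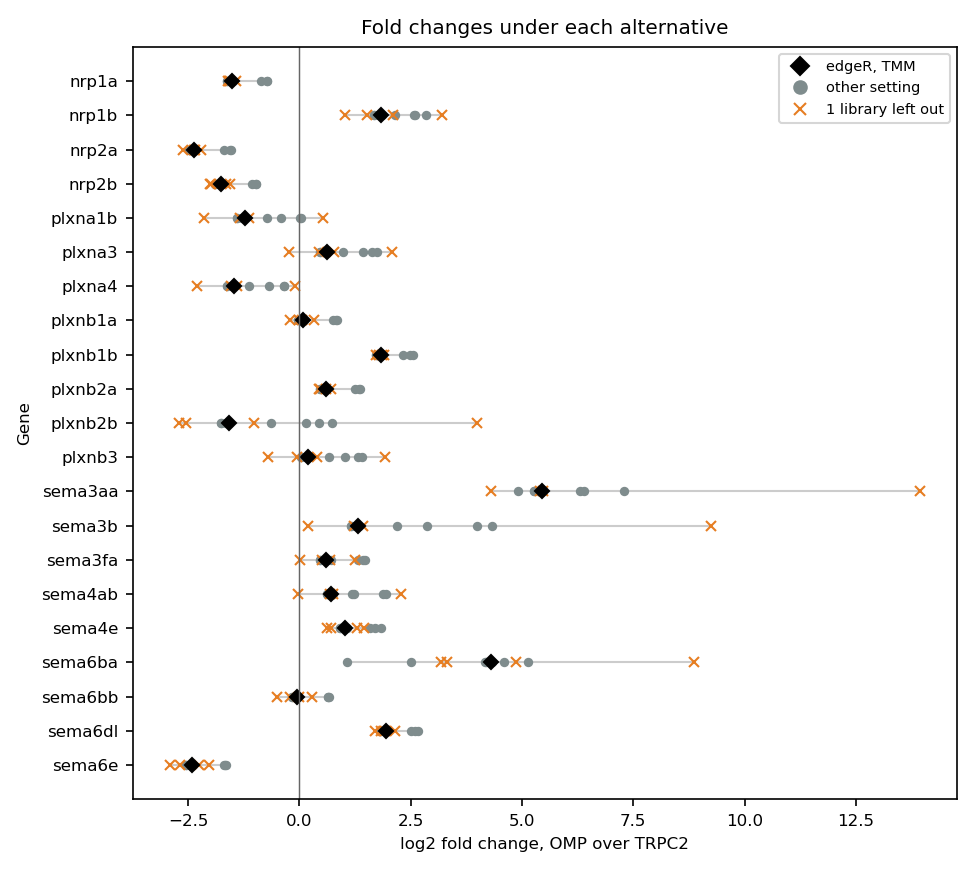
Each row is a gene and the x axis gives its log2 fold change of OMP over TRPC2, with a diamond for edgeR with TMM scaling, circles for other settings and crosses for fits with 1 library left out. nrp1a, nrp2a, nrp2b and sema6e stay left of 0 throughout, at -0.72, -1.54, -0.97 and -1.64 at their nearest, while plxna1b, plxnb2b and sema6bb cross it.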

How the data were processed

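RNA was sequenced from 2 OMP and 2 TRPC2 libraries of sorted 48 hpf zebrafish OSNs. The authors used STAR for mapping to GRCz10 and VERSE for counting. Not given in the sources used here are their versions, the annotation, the strand setting and how reads shared by duplicated genes were treated. The deposited tables hold raw counts for each gene symbol, and RPM, which are those counts scaled by the authors to a larger total for each library. The gene counts are 56.0% to 75.9% of that total. Nothing says what a replicate shared, so p-values measure the spread between libraries.

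Counts of all genes were fitted with edgeR 4.0.16 in R 4.3.3 (glmQLFit and glmQLFTest, TMM, default filterByExpr by class, Benjamini-Hochberg adjustment over all tested genes), and the procedure was tested on simulated data. Alternatives used DESeq2 1.42.0 and limma 3.58.1 on log2(RPM + pseudocount). Of the members, 39 matched a symbol and 3 an older symbol in RefSeq. The members and gene lists were chosen with earlier results of these data known. Members are named with all values when a class mean reached 10 RPM, when the unadjusted p was under 0.05 toward TRPC2, or when a duplicate pair had opposite signs. From the mediator and co-receptor lists, the 4 genes with the most reads and the 3 with the smallest p are named. Other members and markers were named after their values were seen. Amplified reads are not independent molecules, and transcript lengths were not used, so levels are not ranked between genes. 1 list of cell type markers is not reported here.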

Additional observations from a re-analysis of the deposited data

How the results depend on the processing

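Single genes were refitted for the 21 members named by rule, and the other 21 only entered the counts and sums. Of the 21, 14 kept the sign of their fold change under the 13 alternatives, or 12 for sema6ba, which a minimum of 100 counts left out. These were nrp1a, nrp1b, nrp2a, nrp2b, plxna4, plxnb1b, plxnb2a, sema3aa, sema3b, sema3fa, sema4e, sema6ba, sema6dl and sema6e. Read against the median of all tested genes in the same fit, some of them changed side. Without the first TRPC2 library nrp1b, sema3b and sema3fa were at 1.02, 0.19 and 0.022, below a median of 1.24. At an adjusted p under 0.05, 0 members were called in either direction in edgeR with TMM, either other scaling, either other filter, or without red blood cell genes. DESeq2 called 8 toward OMP and 4 toward TRPC2, limma on log2(RPM + 0.5) called 8 and 1, and limma on log2(RPM + 0.1) called 12 and 1. Leaving out each library gave 0 to 21 toward OMP and 0 to 8 toward TRPC2, the high ends without a TRPC2 library, when the single one left takes its spread from the OMP pair. With a replicate block edgeR called 1 member toward OMP (sema3aa) and 2 toward TRPC2 (nrp2a and sema6e), and 1.56% and 1.27% of all genes. Libraries share only the numbers 1 and 2, and over 21026 genes the deviations of those with one number had a correlation of -0.00105, so the block pairs nothing that the labels name. Unadjusted p under 0.05 toward OMP, 9 members, became 19 and 18 with limma at pseudocounts of 0.5 and 0.1, 2 with the replicate block, and between 1 and 23 as libraries were dropped. The share of all genes moved alike, being 23.3% in the main comparison, 39.0% and 37.6% in limma, 10.1% under the block, and between 1.43% and 40.4% for dropped libraries. Toward TRPC2, 4 members (7.18% of all genes) became 2 (2.1%) with library totals only, and 1 to 8 (1.67% to 19.4%) with a library left out.

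The log2 ratios of summed levels moved with TMM-scaled counts, from RPM values of -0.81 to -1.60 for neuropilins, 1.18 to 0.38 for B type plexins, 2.34 to 1.54 for class 3, 1.48 to 0.70 for class 4, 1.44 to 0.66 for class 5 and -0.19 to -0.98 for class 6. Without the member of most reads they were 3.01 for class 3, 6.10 for class 5, 1.85 for class 6 and 0.67 for the A type plexins, whose main value was -0.065. With a library left out the A type plexins ran from -0.74 to 1.26, class 6 from -0.57 to 0.10, class 3 from 1.96 to 2.86, class 4 from 1.12 to 1.95, the B type plexins from 0.92 to 1.51 and the neuropilins from -0.93 to -0.71. Counting the rows in capitals, added after seeing the data, made class 4 0.84 and the neuropilin share 30.8% in OMP and 57.7% in TRPC2. Without nrp1a, also added then, that share was 19.0% in OMP and 45.1% in TRPC2.

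Among single genes, plxna1b was 0.019 and 0.043 with limma at pseudocounts of 0.5 and 0.1, and -2.13 to 0.54 with a library left out. plxna3 was -0.23 to 2.09 and sema4ab -0.041 to 2.28 with a library left out. plxnb1a was -0.031 under both DESeq2 and its size factors, and ran from -0.21 to 0.34 as single libraries were dropped. plxnb2b was 0.15 and 0.73 with limma, 0.44 with the replicate block, and ran from -2.70 to 3.98 as libraries were dropped. plxnb3 was -0.70 to 1.92 with a library left out. sema6bb was 0.64 and 0.67 with limma, 0.65 when scaled by library totals, and ran from -0.50 to 0.29 as libraries were dropped. For all of these the cause was not tested. At 3 reads per library, levels under 0.0269 to 0.0356 RPM could not be told from 0.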
